A study of Mus musculus with 65 samples.

Results

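Cd79a, Cd79b, Ighm, Ms4a1, Cd22, Fcmr, Ly6d, Spib and Pou2af1 are 9 genes of the mature B cell, out of 44500 genes listed for hematopoietic stem and progenitor cells (HSPCs) of mouse bone marrow. They were chosen by their higher FPKM in reserve-gate cells after treatment with 5-fluorouracil (5FU), which kills cells in cycle, than in the other HSPC groups, so that difference is given below as a description and without a test. FPKM are fragments counted per length of transcript and per size of the library. All 9 were found by symbol in the HSPC and niche sets, which list 44500 and 44381 genes, and by Ensembl identifier in the set of niche cells after 5FU, which lists 47530.

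The 65 RNA-seq libraries, in 17 groups, came from mouse cells sorted by FACS out of tibia and femur. The HSPC groups share the LSK gate, which keeps cells without lineage markers and with Sca-1 and c-Kit. Within it, Reserve cells (n = 4) were Flk2-, CD34- and CD49b-, Primed cells (n = 3) Flk2-, CD34- and CD49b+, ST cells (n = 3) Flk2- and CD34+, and MPP cells (n = 4) Flk2+ and CD34+. The 5FuReserve cells (n = 3) were taken by the reserve gate on day 3 after 5FU; the label of replicate 3 writes CD49- in place of CD49b-. Of the niche groups in homeostasis, Ncad_bone and Ncad_marrow (Tomato+), Col2.3_GFP, Cxcl12_RFP (DsRed), Nestin_GFP, Ng2_RFP (n = 4 each) and Lepr (n = 6) were labelled as negative for CD45, Ter119 and CD31. The Pecam_GFP group (n = 4) carries the same label, with Pecam-gfp+, although CD31 is the product of Pecam1. Mac cells (n = 4) were CD45+ F4/80+, negative for CD3, B220 and NK1.1 and for YFP of a Pf4-Cre R26-YFP reporter. MK cells (n = 4) were CD45+ and YFP+ of that reporter, with no further gate named, and this label marks each cell in which Pf4-Cre has been active and its descendants, whatever its present Pf4 level. After 5FU, on a day that the sources used here leave unstated, Tomato+ cells came from bone (5Fu_Ncad_tdT_bone) and marrow (5Fu_Ncad_tdT_marrow, n = 3 each). Strain and age are not stated in the sources used here.

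A mature B cell carries an antigen receptor made of a membrane immunoglobulin, whose first heavy chain class is IgM, and of the signalling pair CD79A and CD79B. Before that, a pre-B cell pairs its new mu heavy chain with the surrogate light chain encoded by Vpreb and Igll1 genes, while a plasma cell has lost most of the receptor and secretes antibody, with the J chain joining IgM and IgA into polymers. Bone marrow holds all of these stages, beside mature B cells that return from the blood.

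Libraries of 1 group did not stand equally far apart. Over genes with a mean of 1 to 10 FPKM, Reserve replicates 3 and 4 had a Spearman correlation of 0.902 and Primed replicates 2 and 3 of 0.904, against 0.685 to 0.839 in the other 19 pairs within an HSPC group. In the niche set 3 pairs (Col2.3_GFP 1 and 4, Ng2_RFP 1 and 4, Lepr 5 and 6) had 0.871 to 0.913, against 0.720 to 0.862 in the other 66. The labels do not tie replicates to separate animals, so each p-value rests on spread among libraries that may be technical in part or whole. Absolute depth was unknown. The spacing of low values gave relative depths that differed up to 5.35-fold among HSPC, 7.16-fold among niche and 2.71-fold among 5FU niche libraries, and each library had 11649 to 14258 genes at 1 FPKM or more.

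Promoters were read for 5 of the 9 genes, those with an entry in RefSeq's table (GRCm38.p6), over 250 bases before and 50 bases from the transcription start. They were searched on both strands for the octamer ATGCAAAT, to which the product of Pou2af1 is recruited by Oct factors, for CCCNNGGGA, a form of the EBF1 motif, and for GAGGAA, a core bound by PU.1 and Spi-B. The octamer stood in 0 of the 5 windows and in 1.74% of 32851 promoters of the same length, a count that left out 1 chromosome. The EBF1 form stood in 1 window (Cd22) and in 6.56% of these promoters. GAGGAA stood in 3 windows (Cd79a, Fcmr and Pou2af1) and in 28.3%, and Spib held none of the 3 motifs. The Cd22 match is found on both strands at overlapping places (-49 to -41 and -48 to -40 from the start), so its capitals mark both. The match in Cd79a lies at -140 to -135 and that in Fcmr at -36 to -31, both on the opposite strand, and that in Pou2af1 (not printed) at 19 to 24. The 3 windows with a match before the start are shown 5′ to 3′ on the gene's strand with the match in capitals, from chr7:24897247-24897546 (Cd79a, plus strand), chr7:30878979-30879278 (Cd22, minus strand), chr1:130865527-130865826 (Fcmr, plus strand).
Cd79a: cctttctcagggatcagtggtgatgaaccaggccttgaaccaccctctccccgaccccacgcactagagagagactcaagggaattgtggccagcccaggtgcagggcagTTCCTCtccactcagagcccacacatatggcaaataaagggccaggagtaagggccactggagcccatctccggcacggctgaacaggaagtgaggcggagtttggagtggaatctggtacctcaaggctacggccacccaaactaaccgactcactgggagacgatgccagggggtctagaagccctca
Cd22: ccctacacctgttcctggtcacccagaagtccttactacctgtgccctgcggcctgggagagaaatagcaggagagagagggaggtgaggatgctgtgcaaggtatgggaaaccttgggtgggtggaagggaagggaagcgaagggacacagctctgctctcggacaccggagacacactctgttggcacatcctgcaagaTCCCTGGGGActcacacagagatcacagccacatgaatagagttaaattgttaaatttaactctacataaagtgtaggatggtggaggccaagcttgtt
Fcmr: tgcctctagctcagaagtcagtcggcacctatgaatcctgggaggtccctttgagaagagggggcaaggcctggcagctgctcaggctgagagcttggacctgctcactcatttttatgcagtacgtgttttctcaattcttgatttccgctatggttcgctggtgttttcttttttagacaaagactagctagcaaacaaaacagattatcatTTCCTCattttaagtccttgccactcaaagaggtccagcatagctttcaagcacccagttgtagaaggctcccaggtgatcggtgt

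In 5FuReserve Ighm had the highest level of the 9 genes, and Ly6d, Cd79a, Cd79b and Fcmr followed. Cd79a (ENSMUSG00000003379, a protein-coding gene on mm10 chromosome 7, 24897381 to 24902197), the signalling chain CD79A, was at 502, 510.3 and 477 FPKM in the 5FuReserve libraries. In Reserve it was at 0, 0, 0.621 and 0.548 FPKM, in Primed at 0.0520, 0.0320 and 0, in ST at 0, 0 and 0.0300, and in MPP at 4.26, 0, 0.614 and 1.37. The groups did not overlap, and among the other HSPC groups only MPP held libraries above 1 FPKM. The mean of 497 ± 17.3 FPKM (SD, n = 3) stood against 0.292 ± 0.339 (SD, n = 4) in Reserve, a log2 fold change of FPKM + 1 of 8.63 ± 0.39 (SE), on a scale that understates the change of low genes.

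Cd79b (ENSMUSG00000040592, chromosome 11, 106311341 to 106314762, minus strand) encodes the partner chain of CD79A, yet its transcript was present in all HSPC groups. It was at 478, 492 and 478 FPKM in 5FuReserve and at 48.3, 62.5, 74.6 and 76.3 in Reserve. Primed libraries had 46.9, 47.8 and 45.2, ST libraries 46.4, 54.5 and 48.7, and MPP libraries 32.1, 28.8, 42.6 and 36.8 FPKM. 5FuReserve was thus 7.37 times Reserve by the ratio of means (log2 fold change 2.89 ± 0.15), the smallest difference of the 9 genes on the log2 scale. The ratio of Cd79a to Cd79b, which can be read because FPKM is per length, was 0.999 to 1.05 in 5FuReserve and at most 0.133 in the 14 other HSPC libraries.

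Ighm (ENSMUSG00000076617, an immunoglobulin constant gene on chromosome 12, 113418558 to 113422730, minus strand) encodes the constant part of the mu heavy chain, and it is counted whichever variable segment was joined to it and also in transcripts of the unjoined locus. Its level was 13312, 13044 and 13769 FPKM in 5FuReserve. In Reserve it was at 1.48, 11.2, 679 and 718 FPKM, so the 2 close libraries, replicates 3 and 4, stood far above the others, and the ratio of the 5FuReserve mean to the Reserve mean was 37.9 with all 4 libraries and 2114 with replicates 1 and 2 alone. Primed had 4.56, 4.8 and 4.49 FPKM, ST 10.1, 21.0 and 12.0, and MPP 500.5, 347, 808 and 562. MPP and the high Reserve libraries overlapped, and 5FuReserve overlapped with none. Its log2 fold change from Reserve was 7.75 ± 1.47, the widest error of the 9 genes.

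Of the surface genes, Fcmr, Ms4a1 and Cd22 were under 1 FPKM in every HSPC library outside 5FuReserve. Fcmr (ENSMUSG00000042474, chromosome 1, 130865669 to 130880791), the receptor for the Fc part of IgM, was at 311, 325 and 324 FPKM in 5FuReserve and listed at 0 in every Reserve and Primed library. Its only other HSPC values above 0 were 0.252 FPKM in ST replicate 3 and 0.678 in MPP replicate 4. Fcmr had the widest gap of the 9 genes between its lowest 5FuReserve value and its highest value elsewhere among HSPCs, a ratio of 459.

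Ms4a1 (ENSMUSG00000024673, chromosome 19, 11249675 to 11266241, minus strand), which encodes CD20, the target of anti-B cell antibodies, was at 97.0, 102 and 124 FPKM in 5FuReserve and between 0.203 and 0.711 in all 14 other HSPC libraries. Cd22 (ENSMUSG00000030577, chromosome 7, 30865402 to 30880342, minus strand), a sialic acid-binding receptor that dampens B cell receptor signals, was at 18.3, 14.6 and 15.8 FPKM against 0.0400 to 0.593 elsewhere. Each of the 2 genes had its lowest 5FuReserve value far above its highest value elsewhere, by 136 times for Ms4a1 and 24.6 times for Cd22. Ly6d (ENSMUSG00000034634, chromosome 15, 74762056 to 74763620, minus strand), a surface protein that appears on lymphoid progenitors as they commit to the B lineage, was at 999.9, 1057 and 841 FPKM in 5FuReserve. In Reserve it was at 0, 0, 6.45 and 8.13, with replicates 3 and 4 again the high ones, and in MPP at 4.76, 4.42, 20.4 and 10.1. Primed and ST libraries reached at most 1.92 FPKM.

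The regulators were the lowest genes of the 9 in 5FuReserve. Spib (ENSMUSG00000008193, chromosome 7, 44525993 to 44532071, minus strand), the Ets factor Spi-B of B cells and plasmacytoid dendritic cells, was at 15.9, 15.1 and 11.4 FPKM, and at most 0.371 elsewhere among HSPCs. Pou2af1 (ENSMUSG00000032053, chromosome 9, 51213708 to 51240080), the coactivator OBF-1 of Oct factors, was at 9.56, 11.2 and 9.10 FPKM. It was listed at 0 in all Primed and ST libraries and reached 0.0780 in Reserve, but MPP stood apart with 1.26, 0.925, 0.426 and 1.11 FPKM. For Pou2af1 the MPP libraries overlapped with no other group.

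By rank among the 16171 genes tested, the log2 fold changes of the 9 genes in 5FuReserve lay between rank 49 (Cd79a) and rank 392 (Cd79b) from the highest. Of all genes tested in this comparison 48.3% were called in either direction and 25.5% higher, and since the 9 genes were chosen by their high level in 5FuReserve nothing is read from their place there. Cd79b, Ighm and Ly6d passed the filter on low values (1 FPKM in 3 libraries) without the 5FuReserve libraries, and the other 6 genes passed only with them. Replicates of 5FuReserve lay close together, with a coefficient of variation between 1.66% (Cd79b) and 17.2% (Spib). Among the other 4 HSPC groups the order of means was less firm. Counting 5FuReserve too, 24 of the 36 pairs of neighbouring groups in the order of a gene overlapped in their libraries. MPP came second in mean for 7 genes, while Reserve came second for Cd79b and Primed for Cd22. In bulk RNA, more cells of a type and more RNA per cell cannot be told apart.

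**Figure D1:**
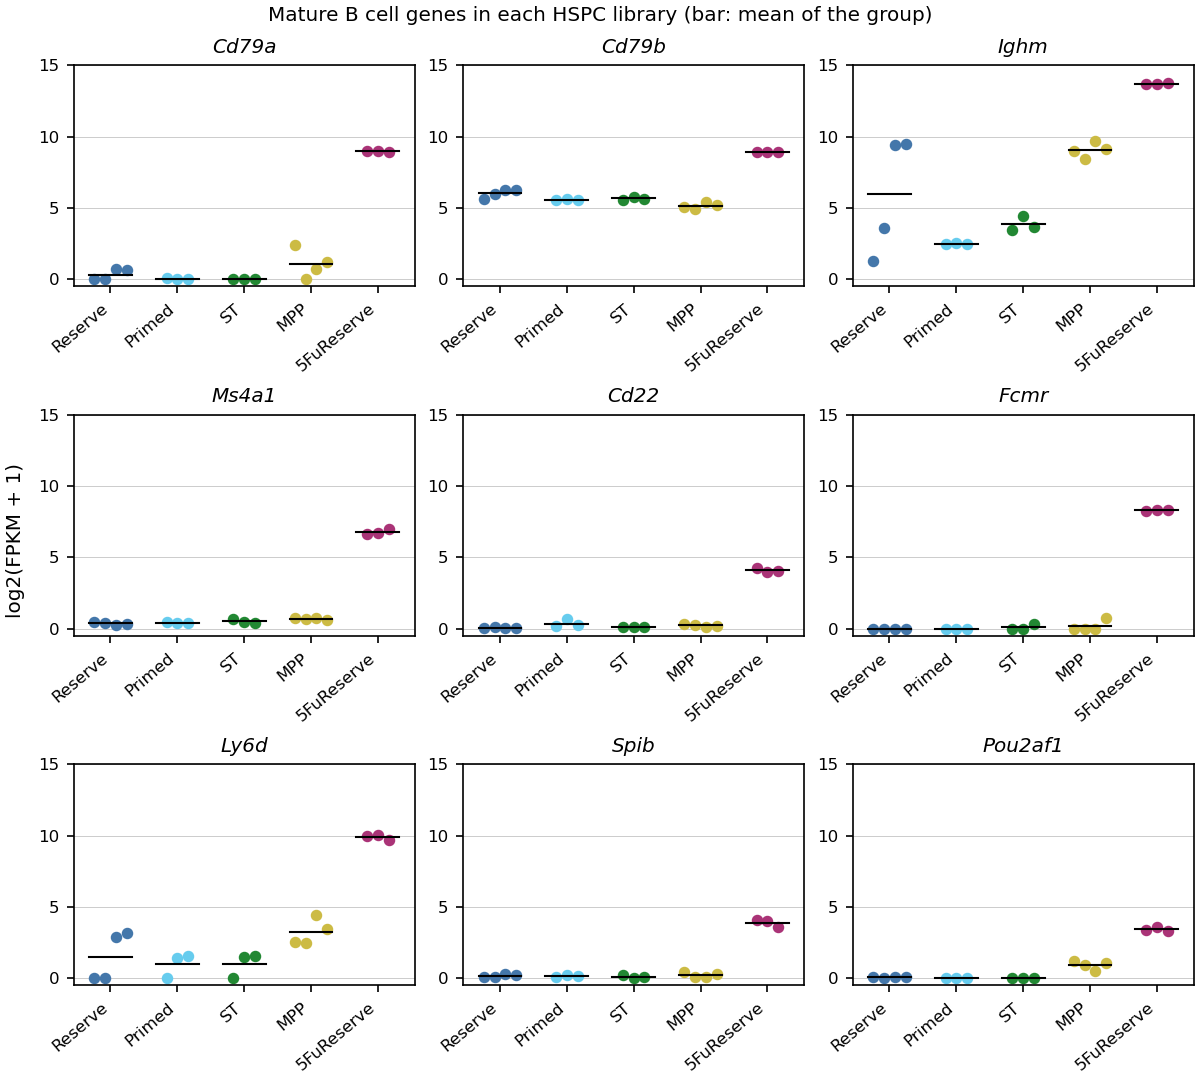
Level of each of the 9 genes in the 17 HSPC libraries, as log2(FPKM + 1) on the vertical axis. Points are libraries in order of replicate number and bars are group means. In every panel the 3 5FuReserve libraries lie above all others, the difference by which the genes were chosen. How many of all genes do so was not counted. Cd79b is at least 28.8 FPKM throughout, and Reserve replicates 3 and 4 are high for Ighm.

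The other genes of the B cell were read from 6 lists that hold none of the 9. Of their 70 tested genes, 58 were higher and 4 lower in 5FuReserve than in Reserve (limma, Benjamini-Hochberg adjusted p under 0.05). Of all genes 48.3% were called and 25.5% called higher. These are the contrast and the libraries that chose the 9 genes, and the lists were chosen with earlier results of these data known. Counts of these lists and of those of other cells below are thus a description. However, 19 of the 70 passed the filter on low values only with the 5FuReserve libraries and so could only be higher; without 1 of these libraries 61 genes were tested and 52 to 53 called. Of the 51 that passed without them, 39 were higher and 4 lower. Of all genes that passed without the libraries of either group 47.4% were called and 24.0% called higher. Counts and medians below are over genes that passed in that way, and the others are given by their levels with no test. With the closest library pairs merged into 1, 61 were called in place of 62; this and the count by filter were chosen after seeing the data.

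In the list of B cell receptor signalling genes 9 of 13 were higher and 1 lower, with a median log2 fold change of 1.18 beside -0.04 over all such genes. Blnk, the adaptor of the pathway, rose by 4.87 ± 0.31 and the phosphatase gene Ptpn6 by 1.38 ± 0.13 (limma adjusted p = 1.2e-08 and 6.5e-07). The exception was Vav1, an exchange factor also used by other blood cells (-0.37 ± 0.14, adjusted p = 0.037), named after its value was seen. Blk, a Src-family kinase of B cells, had a mean of 23.2 FPKM in 5FuReserve and 0 in Reserve and passed the filter only with the 5FuReserve libraries.

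Of 6 B cell transcription factor genes that passed without 5FuReserve, 2 were higher and 1 lower, with a median log2 fold change of 0.40. The lower was Bcl11a, which stem cells also use and which fell by 0.997 ± 0.11 on the log2 scale (limma adjusted p = 3.6e-06). Ikzf3, Ebf1 and Pax5, which build and keep B cell identity, passed only with the 5FuReserve libraries. Their mean levels there were 15.2 FPKM for Ikzf3, 7.96 for Ebf1 and 3.57 for Pax5, against 0, 0.0693 and 0 in Reserve. In the list of mature B cell surface genes 14 of 15 were higher and 1, Ltb (-0.91 ± 0.25, adjusted p = 0.0083, named after its value was seen), was lower, with a median of 3.20. H2-Ob, of antigen presentation, rose by 3.95 ± 0.14 (adjusted p = 1.5e-11). Cxcr5, the follicle homing receptor, and Fcrla, which passed only with 5FuReserve, had means of 15.1 and 65.8 FPKM there and 0.391 and 0.429 in Reserve.

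Immunoglobulin constant genes showed which heavy and light chains accompanied Ighm. Of the 11 listed, 6 passed the filter without 5FuReserve and all 6 were higher, with a median log2 fold change of 10.59. Igkc, the kappa light chain, was at 67707, 68939 and 64734 FPKM in 5FuReserve, and Ighd, the IgD chain that mature naive B cells carry beside IgM, at 173, 176 and 202. Igha stood at 4495, 4433 and 4117 FPKM. Ighg3, at 499.5, 692 and 1127 FPKM, and Ighg2b, at most 6.93, passed only with 5FuReserve, and Ighg1, Ighg2c and Ighe did not pass. Ighg2c and Ighe were listed at 0 in all 3 libraries. These genes share near-identical segments, so their FPKM are uncertain.

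Genes of earlier and later B cell stages were less even. In the pro-B and pre-B list 2 of 5 genes that passed without 5FuReserve were higher and 1 lower, with a median of 0.15. Another 3 genes, Vpreb3 among them, passed only with 5FuReserve and so could only be higher. The list's summed level was 69.1 to 82.5 FPKM in 5FuReserve against 18.2 to 20.4 in Reserve. Il7r, the receptor for IL-7, rose by 4.06 ± 0.26 (limma adjusted p = 1.0e-08), while Cd93 fell by 0.59 ± 0.09 on the log2 scale (adjusted p = 1.2e-04, named after its value was seen). The surrogate light chain gene Igll1 was at 0.245, 0 and 0 FPKM in 5FuReserve, Vpreb1 at 1.39, 1.57 and 0.198, and Vpreb2 and the recombinase gene Rag1 were listed at 0 in all 3, these 4 named after their values were seen. Of the plasma cell list 6 of 6 genes that passed without 5FuReserve were higher, with a median of 2.56. The largest mean of that list was that of Jchain, at 5354, 5718 and 6004 FPKM. Mzb1, which helps antibody assembly, rose by 5.56 ± 0.39 (adjusted p = 3.0e-08).

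Markers of other cells moved with the B cell genes in the same 3 libraries. Of the T cell list 10 of 15 tested genes passed the filter only with them, and of the other 5 genes 3 were higher and 0 lower. Its summed level was 443 to 518 FPKM in 5FuReserve against 12.4 to 13.9 in Reserve, where Cd3e, Cd3g and Cd2 were listed at 0. Of the genes that passed without 5FuReserve, 3 of 3 of the NK cell list were higher (summed 266 to 336 against 49.1 to 87.9 FPKM) and of the plasmacytoid dendritic cell list 3 of 5 higher and 1 lower (363 to 415 against 90.5 to 139). Siglech, a defining gene of the latter cells, which also use Spib, was at 98.2, 95.6 and 95.8 FPKM.

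By the same count the macrophage list had 5 of 5 higher (summed 917 to 1027 against 346 to 524 FPKM), the neutrophil list 4 higher and 1 lower of 8 (8270.1 to 10531 against 1336 to 4073), and the erythroid list 1 higher of 3. Of the stem cell list 1 of 10 was higher and 8 were lower, although the summed level, 1348 to 1519 FPKM after 5FU and 1476 to 1551 in Reserve, overlapped because Ly6a rose. Kit, the c-Kit of the gate, was at 30.6 FPKM on average after 5FU and 109 in Reserve (log2 fold change -1.81 ± 0.07, adjusted p = 3.5e-11). The part of these other cells in the levels of the 9 genes was not tested.

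**Figure D2:**
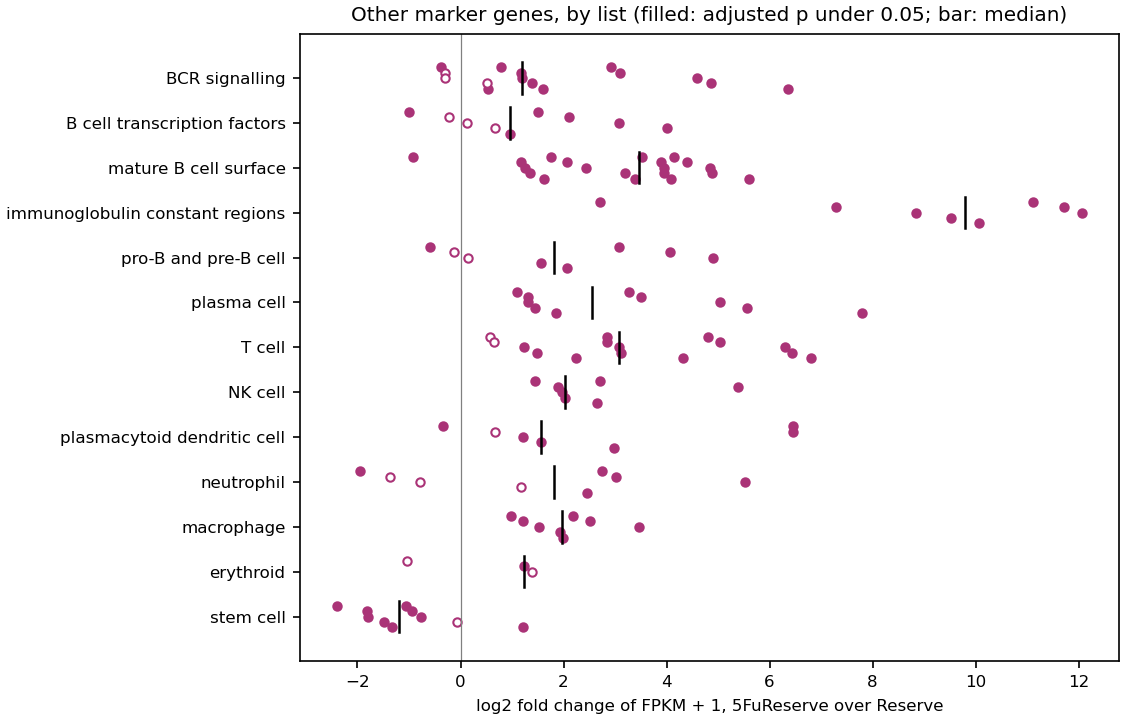
Log2 fold change of FPKM + 1 from Reserve to 5FuReserve for each tested gene of 13 marker lists, which hold none of the 9 genes and include genes that passed the filter only with 5FuReserve. Points are genes, filled where the adjusted p was under 0.05, and bars are list medians. Genes that passed only with 5FuReserve could only be higher, so their fill is not read as a test and the medians that include them describe. Immunoglobulin constant genes lie farthest to the right (median 9.79) and stem cell genes mostly to the left (median -1.19).

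The genes whose pattern over the 17 HSPC libraries was most like the mean of the 9 (Pearson r of log2(FPKM + 1), among 9941 genes with a group mean of at least 5 FPKM) were, from 0.986 down to 0.979, Ighv1-26, Fcrla, Ighv1-19, Ighv1-80, Apobec3, Psmb7, Gpr174, RP23-247I11.8, Plvap and Ebf1. Ighv1-26 had a mean of 899 FPKM in 5FuReserve and 2.88 in MPP and was listed at 0 elsewhere. The list mixes genes near 0 outside 5FuReserve with Apobec3 and Psmb7, which were at 80.7 and 41.4 FPKM in Reserve. All libraries share the contrast that chose the 9 genes, so this is a description.

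Primed, ST and MPP stood on the low side of the contrast that chose the 9 genes, so their libraries were used by it. Differences among them were compared here, with p-values of genes whose choice was not independent of these libraries. The calls are thus given as a description. MPP was set against ST and against Primed, 2 comparisons that share the MPP libraries, in a fit of these 3 groups. Only Cd79b, Ighm and Ly6d of the 9 reached an FPKM of 1 in 3 libraries and were tested, and the other 6 were not. Ighm was higher in MPP, 554 ± 192 FPKM (SD, n = 4) against 14.3 ± 5.84 in ST (SD, n = 3) and 4.62 ± 0.164 in Primed (SD, n = 3). Its log2 fold changes were 5.18 ± 0.29 and 6.56 ± 0.29 (limma adjusted p = 2.0e-05 and 2.1e-06), and all 4 MPP libraries lay above all ST and Primed libraries.

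Ly6d was higher in MPP by 2.2 ± 0.60 than in ST and by 2.23 ± 0.60 than in Primed (limma adjusted p = 0.036 and 0.021). Cd79b was lower in MPP by these fits, with changes of -0.51 ± 0.14 and -0.42 ± 0.14 (limma adjusted p = 0.035 and 0.045), or 35.1 ± 5.98 FPKM (SD, n = 4) against 49.8 ± 4.17 (SD, n = 3) and 46.6 ± 1.33 (SD, n = 3). The share of all genes called was 16.9% for MPP against ST and 31.4% for MPP against Primed. The Cd79b and Ly6d calls were lost under many alternatives. Against ST both were lost without ST replicate 1, 2 or 3 or MPP replicate 4 (1 of 3 genes called in each). Against Primed both were lost without Primed replicate 1 (1 of 3). Without MPP replicate 1 or 2 the calls were 2 higher and 0 lower in both comparisons, so that of Cd79b was lost. The same held against Primed without Primed replicate 2 or 3 or MPP replicate 4. Only without MPP replicate 3 was 1 gene still called lower in each comparison. After median-of-ratios scaling Cd79b was not called (-0.30 and -0.21, limma adjusted p = 0.11 and 0.20). Pou2af1, listed at 0 in all ST and Primed libraries, then passed the filter through the MPP libraries alone. It could thus only be higher in MPP, by 0.98 in both comparisons, and is given without a test.

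That scaling moved the median of all genes from -0.20 to -0.03 for MPP against ST and from -0.22 to -0.04 against Primed, and the split from 576 higher and 1870 lower to 900 and 962, and from 1382 and 3160 to 2005 and 2004. The changes of Cd79b after scaling, above, are relative to that shift. Other B lineage genes moved in both directions. Of 39 genes of the B cell lists that passed the filter without the libraries compared, 9 were higher and 5 lower than in ST. Against Primed 11 of 39 were higher and 10 lower. Of all genes that passed in that way, 17.2% were called against ST and 31.8% against Primed. In the pro-B and pre-B list 1 of 3 such genes was higher than in ST and 2 than in Primed, with 0 lower in each. Dntt, whose product adds untemplated bases where receptor segments are joined, had a mean of 280.3 FPKM in MPP and 5.45 in ST (log2 fold change 5.45 ± 0.15, adjusted p = 3.1e-07), and Igkc was at 1248, 1582, 1208 and 1932 FPKM in MPP. Jchain was at 201, 217, 317 and 79.4 FPKM in MPP and at 1.15, 34.9 and 35.4 in ST (adjusted p = 0.028 by limma). In MPP replicate 3 the lambda genes Iglc1 and Iglc2 stood at 2425 and 1796 FPKM, against at most 5.25 and 17.5 in the other 3, values named after they were seen.

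The same marks stood in Reserve replicates 3 and 4. Jchain was at 3.69, 0.430, 268 and 232 FPKM in the 4 Reserve libraries and Igkc at 0, 1.84, 2283 and 2341, while Cd79a stayed at or below 0.621, Ms4a1 at or below 0.282 and Fcmr at 0. Cd79b, at 74.6 and 76.3 FPKM, and Ly6d, at 6.45 and 8.13, were higher in these 2 libraries than in Reserve replicates 1 and 2, where they were at 48.3 and 62.5 and at 0 and 0. So the high Ighm of these 2 libraries came with Igkc and Jchain, with somewhat more Cd79b and Ly6d, and with little Cd79a, Ms4a1 and Fcmr. In MPP, too, Ighm was 117 to 1315 times Cd79a in the 3 libraries where Cd79a was above 0, against 25.6 to 28.9 times in 5FuReserve.

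In the niche groups of homeostasis MK had the highest mean of all 9 genes. It was set against Mac, the other CD45+ sort and the one whose label excludes B220+ cells. There 7 of the 8 genes that passed the filter without the libraries of either group were higher in MK. Of all genes 31.9% were called and 23.2% called higher, and of those that passed in that way 31.0% and 22.9%. The Mac label also excludes CD3+ and NK1.1+ cells, while the MK label names no such gate. For B, T and NK cell genes the gate and a difference between the cells thus cannot be told apart. Spib had the smallest p, at 7.55, 9.23, 44.7 and 49.5 FPKM in MK against 0.288, 0.0890, 0.281 and 0.343 in Mac (log2 fold change 4.09 ± 0.37, limma adjusted p = 9.6e-11). Ly6d had the largest change, at 176, 155, 554 and 539.5 FPKM against 7.41, 5.98, 3.97 and 6.29 (5.47 ± 0.76, adjusted p = 7.6e-07). For both genes the groups did not overlap, and MK replicates 3 and 4 were the high ones.

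Of the receptor chains, Cd79a was at 44.5, 51.1, 180.3 and 134 FPKM in MK and 0.446, 5.43, 1.23 and 1.46 in Mac (5.03 ± 0.69, limma adjusted p = 6.2e-07), and Cd79b at 71.2, 80.7, 256 and 239 against 7.51, 12.0, 10.5 and 9.51 (3.68 ± 0.70, adjusted p = 7.7e-05). Ighm went another way. It was at 158, 185, 782 and 827 FPKM in MK and at 664, 198, 125 and 538 in Mac, with groups that overlapped and no call (0.27 ± 0.78, adjusted p = 0.89). Its sign turned after median-of-ratios scaling (-0.00383) and without Mac replicate 3 (-0.16) or MK replicate 3 (-0.09) or 4 (-0.11).

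The remaining surface genes and Pou2af1 followed the receptor pair. Fcmr was at 31.4, 37.4, 111 and 123 FPKM in MK and 1.52, 1.67, 0 and 1.43 in Mac (5.00 ± 0.51, limma adjusted p = 1.5e-09), Ms4a1 at 7.92, 9.96, 36.7 and 38.4 against 0.572, 1.45, 0.323 and 0.499 (3.55 ± 0.42, adjusted p = 2.8e-08). Pou2af1 changed by 3.22 ± 0.43 (adjusted p = 4.1e-07), from a mean of 0.396 FPKM in Mac to 17.7 in MK. Cd22 passed the filter only with the MK libraries, so its difference is given without a test, at 3.96, 4.69, 9.88 and 9.03 FPKM in MK and 0.360, 0.122, 0.290 and 0.200 in Mac. The 7 calls held without any 1 library. Median-of-ratios scaling moved the median of all genes from 0.12 to 0.00 and the split from 4397 higher and 1660 lower to 3304 and 2732, and the 7 kept their sign and call.

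Other cells' genes differed between MK and Mac as well. Pf4, the platelet factor of the reporter, was at 29857, 32765, 5582 and 7842 FPKM in MK and at most 21.7 in Mac, so in MK the libraries with more of the 9 genes had less Pf4, a pattern of 4 libraries without a test. Adgre1, which encodes F4/80, was at 16.9 to 25.1 FPKM in MK and 15.01 to 23.8 in Mac, and the groups overlapped. Of the pro-B and pre-B list 9 of 10 tested genes were higher in MK and 0 lower, with summed levels of 81.8 to 870.4 FPKM against 16.0 to 42.8 in Mac. Vpreb3 stood at 37.9, 103, 529.6 and 559 FPKM in MK and Igll1 at 5.25, 42.2, 91.5 and 95.1. The plasma cell list had 3 higher and 1 lower of 9, the lower being Jchain, at 0, 5.63, 0.132 and 0.0550 FPKM in MK and 333, 74.0, 153 and 214 in Mac (-6.66 ± 1.14, adjusted p = 1.8e-05). Of genes that passed without MK and Mac the T cell list had 9 of 10 higher (summed 45.1 to 165 against 6.65 to 14.3 FPKM) and the NK list 2 of 3 (421 to 640 against 136 to 206). The erythroid list summed to 1086 to 5223 FPKM in MK and 1.13 to 90.4 in Mac, and the macrophage list to 3092 to 4965 and 13282 to 18767. Despite the lower sum, 4 of the 8 macrophage genes were higher in MK and 2 lower, with a median log2 fold change of 1.60. The plasmacytoid dendritic cell list had 6 of 7 genes higher in MK and 0 lower, and the neutrophil list 0 of 8 higher and 3 lower. The part of these cells in the result was not tested.

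**Figure D3:**
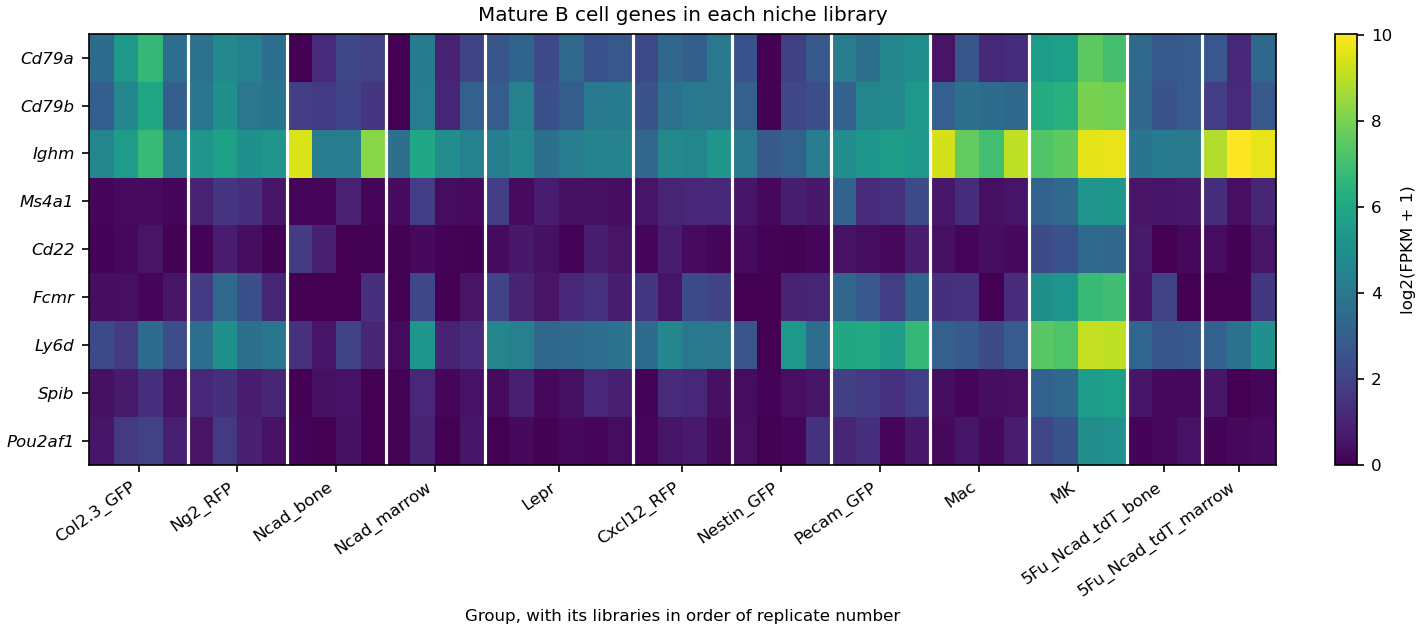
Level of the 9 genes (rows) in the 42 niche libraries of homeostasis and the 6 after 5FU (columns, by group and replicate number), coloured by log2(FPKM + 1). MK columns are the brightest for Cd79b, Cd22, Fcmr, Ly6d, Spib and Pou2af1. Col2.3_GFP replicate 3 for Cd79a and Pecam_GFP replicate 1 for Ms4a1 lie above the lowest MK library. Ighm alone is bright in all 4 Mac, 2 Ncad_bone and the 3 5Fu_Ncad_tdT_marrow libraries.

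Among groups sorted as CD45- the levels were lower and uneven. Ptprc, the gene of CD45, was at 0.369 to 12.1 FPKM in these 34 libraries, against 63.9 to 276 in MK and Mac, so it was low but above 0 in all of them. Pecam_GFP was second in mean for Ms4a1, Fcmr, Ly6d and Spib. Ly6d was at 61.1, 67.9, 44.3 and 101 FPKM and Spib at 2.69, 2.24, 1.73 and 2.63 in Pecam_GFP, where neither overlapped with the next group in the order, Ng2_RFP. Over the 9 genes, 73 of the 81 neighbouring pairs of niche groups overlapped, so most of the order below MK is not resolved.

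Col2.3_GFP, the osteoblast reporter, showed an unlike mix. Cd79a was at 10.8, 41.4, 101 and 11.3 FPKM and Cd79b at 7.02, 24.0, 60.0 and 7.22 in its replicates 1 to 4, second only to MK in mean. Yet Ms4a1 was at most 0.232 FPKM and Fcmr at most 0.440 in these libraries. The surrogate light chain gene Igll1 was at 29.2, 207, 358 and 29.1 FPKM there, with replicates 2 and 3 the highest of the niche set, and Vpreb1 at 14.5, 76.6, 144 and 16.2. Replicates 2 and 3 were thus high for Cd79a, Cd79b, Igll1 and Vpreb1 together, while the 2 close replicates, 1 and 4, were low. The part of pre-B cells in this was not tested, and Igll1 and Vpreb1 were named after their values were seen.

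**Figure D4:**
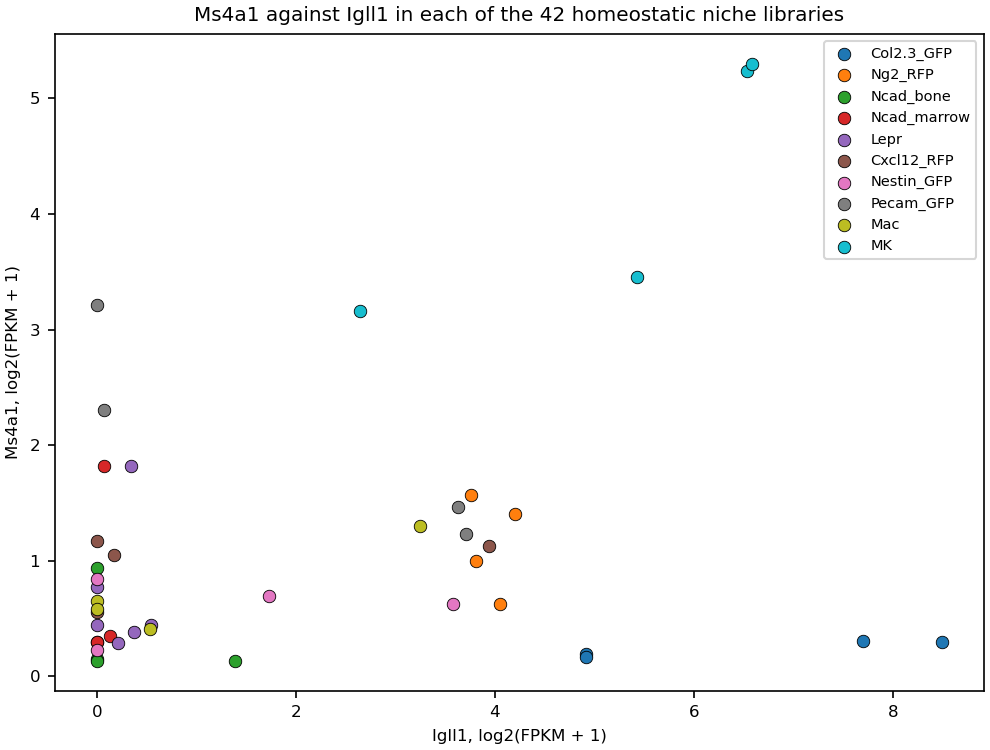
Ms4a1 (vertical axis) against Igll1 (horizontal axis), both as log2(FPKM + 1), in the 42 niche libraries of homeostasis, coloured by group. The 4 Col2.3_GFP libraries have Igll1 between 29.1 and 358 FPKM with Ms4a1 at most 0.232, and the 4 MK libraries have Ms4a1 between 7.92 and 38.4 FPKM.

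Across the 42 libraries the 8 genes other than Ighm went together, with a Pearson r of log2(FPKM + 1) between 0.54 and 0.94 over their 28 pairs (median 0.80), while Ighm had an r of 0.28 to 0.61 with each of them. Without the 4 MK libraries these ranges were -0.04 to 0.82 (median 0.53) and -0.08 to 0.34, and Ighm then had an r of 0.74 with Igkc and 0.70 with Jchain over 38 libraries. The libraries fall into groups of unlike level, so these values describe and have no p. Among the 10 genes most like the mean of the 9 in these libraries (of 11405 genes) were, from 0.928 down to 0.875, Blk, Iglc3, H2-Ob, Ighd, Jakmip1, Fam129c, Fcrla, Il7r and Pmaip1. Fcrla is the 1 gene on both lists of 10.

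**Figure D5:**
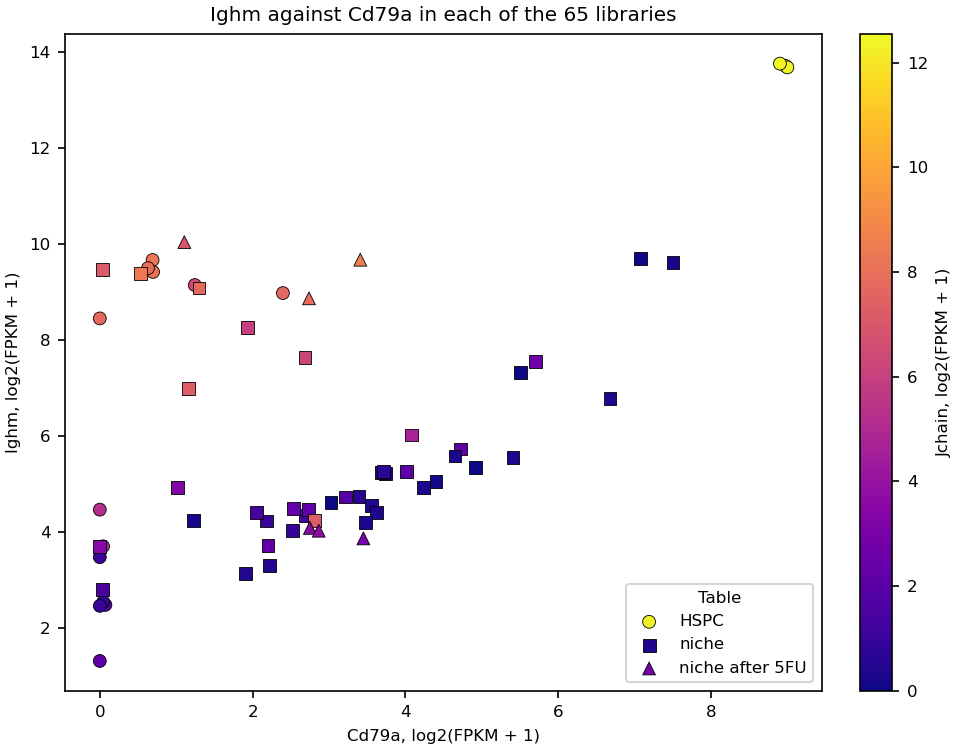
Ighm (vertical axis) against Cd79a (horizontal axis), both as log2(FPKM + 1), in all 65 libraries, with the level of Jchain as colour and the set as symbol; levels across sets were not tested. The 3 5FuReserve libraries lie at the top right with Jchain of at least 5354 FPKM, the 4 MK libraries are high on both axes with Jchain at most 5.63 FPKM, and libraries with high Ighm and little Cd79a have raised Jchain.

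The N-cadherin reporter cells addressed whether marrow and bone differed. In homeostasis 0 of the 9 genes were called between Ncad_marrow and Ncad_bone (limma, all 9 tested), where 24.6% of all genes were. At an unadjusted p under 0.05 there were 2, Cd22 and Ighm. Ighm was at 705, 17.8, 17.7 and 306 FPKM in bone and 12.0, 63.6, 29.4 and 20.0 in marrow (-1.79 ± 0.78, adjusted p = 0.094). Bone replicates 1 and 4 were the high ones, and they also had 4812 and 1040.5 FPKM of Igkc and 141 and 63.1 of Jchain, against at most 9.47 and 1.10 in replicates 2 and 3. Without bone replicate 2 or 3 Ighm was called lower in marrow (-2.56 in both, adjusted p = 0.018 and 0.015), and without bone replicate 3 or 4 Cd22 was (-0.79 and -0.78, adjusted p = 0.026 and 0.030). Without bone replicate 1 the change of Ighm was -0.82.

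In marrow, replicate 2 was the highest library for all 9 genes, with Cd79a at 0, 15.9, 1.02 and 3.16 FPKM and Ly6d at 0.212, 37.6, 0.999 and 1.45 in replicates 1 to 4. Without it the changes of Cd79a (-0.32), Cd79b (-0.41), Ms4a1 (-0.0261), Fcmr (-0.16) and Ly6d (-0.44) turned negative, with no call.

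After 5FU Ighm separated the compartments. It was at 464, 1045 and 811 FPKM in 5Fu_Ncad_tdT_marrow and at 13.5, 15.9 and 15.2 in 5Fu_Ncad_tdT_bone, with no overlap (log2 fold change 5.53 ± 0.29, limma adjusted p = 1.2e-04). This was the 1 call among the 4 of the 9 genes that could be tested, where 22.9% of all genes were called, and it held without any 1 library. Cd79a was at 5.67, 1.15 and 9.62 FPKM in marrow and 9.93, 5.72 and 6.29 in bone (-0.60 ± 0.57, adjusted p = 0.49), and Cd79b at 2.54, 1.35 and 6.0 against 8.85, 4.96 and 6.32 (-0.96 ± 0.42, adjusted p = 0.15). Both overlapped, though without marrow replicate 3 Cd79b was called lower in marrow (-1.39, adjusted p = 0.033). Ly6d was at 7.98, 12.4 and 32.1 FPKM in marrow and 8.77, 5.46 and 5.74 in bone (1.08 ± 0.47, adjusted p = 0.15). Ms4a1, Cd22, Fcmr, Spib and Pou2af1 did not pass the filter and reached at most 2.94 FPKM (Fcmr in bone replicate 2).

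Ighm was thus 81.8 to 907 times Cd79a in the marrow libraries and 1.36 to 2.78 times in the bone libraries. Jchain followed Ighm, at 234, 121 and 374 FPKM in marrow and 6.56, 10.9 and 11.9 in bone (4.39 ± 0.42, adjusted p = 9.5e-04 by limma). Igkc was present in all 6 libraries, at 5468, 3090.2 and 8194 FPKM in marrow and 2275, 1867 and 1959.8 in bone (1.35 ± 0.34, adjusted p = 0.030). In bone the heavy chain beside it was Ighg2b, at 757, 597 and 603 FPKM, which stood at 0.184, 0.964 and 1145 in marrow and passed the filter only with the bone libraries.

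Early B cell genes were at low levels in bone and near 0 in marrow. The 4 tested genes of the pro-B and pre-B list passed the filter only with the bone libraries, so they could only be lower in marrow and no test is given. Vpreb3 was at 8.38, 5.02 and 9.44 FPKM in bone and 0.532, 0 and 0 in marrow, and Igll1 at 10.7, 4.17 and 6.86 against 0, 0.414 and 0. The list's summed level was 15.4 to 25.3 FPKM in bone and 3.13 to 3.55 in marrow. Of the plasma cell list 2 of the 4 genes that passed without depending on 1 group were higher in marrow (Jchain and Sdc1, by limma) and 0 lower, with a summed level of 457 to 698 FPKM against 254 to 288. The plasmacytoid dendritic cell list summed to 572 to 608 FPKM in marrow and 188 to 250.3 in bone, with 1 of 3 genes called higher. The part of pre-B, plasma or dendritic cells in these levels was not tested. The sets may have been normalized apart, which the sources used here do not state, so no change was tested between the homeostatic and the 5FU reporter cells; in homeostasis the highest Ighm of the 4 marrow libraries was 63.6 FPKM.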

How the data were processed

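Bone marrow and bone cells were sorted by FACS, and RNA-seq libraries were made with a SMARTer low-input kit, per the labels' protocols. The authors deposited FPKM per gene; bcl2fastq 2.18, TopHat2 2.0.13, Cufflinks 2.2.1 and the mm10 build are named in the submitters' processing notes. The HSPC, niche and 5FU niche sets list 44500, 44381 and 47530 genes, less 15, 28 and 4 that lack a value in some library and were dropped. The depth behind the values was unknown, so no counting error is given.

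The 9 genes and all lists were chosen with earlier results of these data known. Values were tested as log2(FPKM + 1) with limma 3.58.1 (R 4.3.3, mean-variance trend, two-sided), on genes that reached 1 FPKM in 3 or more libraries of the fitted groups, and adjusted by Benjamini-Hochberg over all genes tested, at 0.05. 5FuReserve against Reserve was fitted on all 5 HSPC groups, MPP on 3 groups, the niche comparisons on all 10 groups of homeostasis and the 5FU niche on its 6 libraries; sets were tested separately. The fits were also run on simulated data, with independent normal spread on the log2 scale. These data lacked the close library pairs and the depth differences, so they do not bear on those limits. Text names the 9 genes, up to 4 genes of smallest p per list, immunoglobulin constant genes, list genes of largest mean and the 10 most alike genes; others are said to be named after their values were seen. The values of 1 gene that the rule names are not reported here. Alternatives were another pseudocount, filter, scaling or set of groups, the replicate number as a block, each library left out and, chosen after seeing the data, the closest pairs merged. Gene positions are from GENCODE M21 on mm10 and promoters from RefSeq (GRCm38.p6).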

Additional observations from a re-analysis of the deposited data

Results flagged for a closer look

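In groups of 4 to 6 libraries, 107 pairs of gene and group were examined. A highest or lowest library stood far from the others of its group in 11. For normally distributed values chance alone would mark about 1 in 20 groups. That rate need not hold for FPKM with values at or near 0, so nothing is read from the count. Ncad_marrow replicate 2 stood out 3 times, with Ms4a1 at 2.53 FPKM (next 0.269), Fcmr at 3.445 (next 0.436) and Ly6d at 37.6 (next 1.45). Ng2_RFP replicate 2 stood out for Cd79b, at 31.6 FPKM (next 14.8), and for Ly6d, at 31.4 (next 14.2). In Ncad_bone, Ms4a1 was at 0.913 FPKM in replicate 3 (next 0.107) and Fcmr at 1.54 in replicate 4 (next 0). Ms4a1 was at 2.53 FPKM in Lepr replicate 1 (next 0.709). Fcmr was at 0.678 FPKM in MPP replicate 4, with 0 in the others, and at 0 in Mac replicate 3, below the next value of 1.43. Cd22 in Reserve replicate 2, at 0.099 FPKM (next 0.043), was also far from its group, at a level near 0.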

How the results depend on the processing

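Of the alternative log2 fold changes of the 9 genes, 332 kept direction and side of the threshold, 35 lost and 5 gained a call, and 12 changed sign; the cause was not tested beyond fewer genes or libraries. Sign changes without a call were Ighm, MK against Mac, with median-of-ratios scaling (-0.00383) or without Mac 3 (-0.16), MK 3 (-0.09) or MK 4 (-0.11; range without 1 library -0.16 to 0.68). Between Ncad_marrow and Ncad_bone they were Cd79b with a pseudocount of 0.1 (-0.35) or without marrow replicate 4 (-0.02), and, without marrow replicate 2, Cd79a (-0.32), Cd79b (-0.41), Ms4a1 (-0.0261), Fcmr (-0.16) and Ly6d (-0.44), whose highest values without 1 library were 1.04, 1.001, 0.55, 0.67 and 1.22. After 5FU it was Cd79a without marrow replicate 2 (0.0521), with -1.10 the lowest value without 1 library.

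Of the 9 genes, those called for MPP against ST (3) were 1 with only the compared groups, 1 with the replicate block, 1 with the closest pairs merged (chosen after seeing the data) and 1 to 2 without 1 library. They were 1 to 3 without 1 library for MPP against Primed (3), 0 to 2 for the Ncad groups (0) and 1 to 2 after 5FU (1). For MK against Mac (8 with Cd22), 4 were called at a mean of at least 5 FPKM, where 5 were tested; other B cell genes called in 5FuReserve (62) were then 41.

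All genes called for MPP against ST (2446) were 1485 with only the compared groups, 56 with the replicate block and 1080.0 to 2964 without 1 library (lowest without ST 2). For MPP against Primed (4542) they were 1805 with the block, 2454 with the closest pairs merged and 2436 to 4678 without 1 library (lowest without Primed 3). For MK against Mac (6057) they were 3999 at a mean of at least 5 FPKM and 3025 with the block, for the Ncad groups (4673) 2842 and 2668, and after 5FU (3150) 2032 at a mean of at least 5 FPKM and 1491 to 2661 without 1 library (lowest without bone 2). Replicate numbers did not pair samples (correlations of deviations -0.095 to 0.080), so the block is given here only. Unknown depth limits values near 0.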
